A study of Homo sapiens with 14 samples.

Results

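DERA, C9orf152 and SLC25A17 are 3 of 19821 protein-coding genes, taken because each lies at or next to a site among the strongest in the lists of chromatin regions bound by the progesterone receptor (PR) in T47D cells. T47D is a breast cancer cell line, labelled as positive for oestrogen and progesterone receptors. They were treated with progesterone (P4) or with its vehicle, ethanol, for 1 h. Chromatin immunoprecipitation with sequencing (ChIP-seq) then used an antibody to PR or an antibody to POLR3A, which forms part of the catalytic core of RNA polymerase III. Each of the 4 groups (PR vehicle, PR P4, POLR3A vehicle, POLR3A P4) had 3 replicate libraries, each treatment had 1 pooled input, and 1 deposited list of regions stood for each group. All regions that reached the span of a gene or the 50 kb on each side of it were collected from the 4 lists, with the genes lying in that window. The 3 genes were chosen on the strength of their PR regions, so their PR ranks and counts are given as a description, and the POLR3A lists, which did not enter that choice, are set beside them. No value could be set against the spread between replicates, and no test was made. All groups come from 1 cell line, the P4 dose is not given in the sources used here, and the lists hold no expression values against which the cell type could be checked.

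PR is a transcription factor of the steroid receptor family. On binding progesterone it associates with response elements in DNA, which lie mostly in enhancers far from gene starts, and it recruits coregulators there. RNA polymerase III transcribes transfer RNA, the smallest ribosomal RNA and other short non-coding RNA genes. Protein-coding genes such as the 3 described here are transcribed by RNA polymerase II. DERA encodes deoxyribose-phosphate aldolase, which breaks down the deoxyribose phosphate released from nucleosides. SLC25A17 encodes a carrier in the peroxisomal membrane that exchanges coenzyme A and other nucleotide cofactors. C9orf152 is an open reading frame of chromosome 9 named by its position.

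Near each gene lay a PR region that stood within the first 9 of its list under both treatments. Regions were ranked by the authors' −log10 q, in which a larger value is a region less likely to be background, and described by the authors' fold enrichment at the summit. At DERA the region ranked 5 of 38933 under vehicle (chromosome 12, 15936689 to 15937311, fold 68.1, −log10 q 506.6) and 1 of 111515 under P4 (15936676 to 15937276, fold 71.2, −log10 q 516.6). It lay inside the gene, with its summit 25.6 kb from the start. At C9orf152 the region ranked 4 under vehicle (chromosome 9, 110188849 to 110189558, fold 70.3, −log10 q 527.4) and 5 under P4 (110188821 to 110189555, fold 59.1, −log10 q 499.4). This summit was 10.3 kb past the end of the gene and inside no protein-coding gene. At SLC25A17 the region ranked 9 under vehicle (chromosome 22, 40732609 to 40733315, fold 71.7, −log10 q 475.3) and 4 under P4 (40732395 to 40733628, fold 68.3, −log10 q 507.9). Its summit lay 36.7 kb past the end of SLC25A17, and the protein-coding gene on the other side, MCHR1, a receptor for melanin-concentrating hormone, ended 50.1 kb away. MCHR1 was named for its position and lies outside the window. The name SLC25A17 therefore marks the protein-coding gene with the nearest span, and nothing in the lists ties that site to the expression of SLC25A17. The start of SLC25A17 lay 86.4 kb from the summit. Which coding gene has the nearest start was not settled, because strand was not known for every gene.

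The ranks depended on the score. By fold in place of −log10 q, the DERA region ranked 8 under vehicle and 1 under P4, and the SLC25A17 region 2 and 6. The C9orf152 region ranked 4 under vehicle but 72 under P4. The lists themselves set no limit for "strongest". The values fell from rank to rank in uneven steps, with a −log10 q of 475.3 at rank 9 of the vehicle list, 469.3 at rank 10 and 450.0 at rank 11. In the P4 list it was 499.4 at rank 5 and 492.9 at rank 6. Summits were in nearly the same place under both treatments, 2 bp apart at DERA, 4 bp at C9orf152 and 11 bp at SLC25A17, against a median of 9 bp in the 1115 regions of the strongest 1% of the PR P4 list. Of that 1%, 100% overlapped a PR vehicle region, so that presence in both lists was shared by every region of this rank class.

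**Figure D1:**
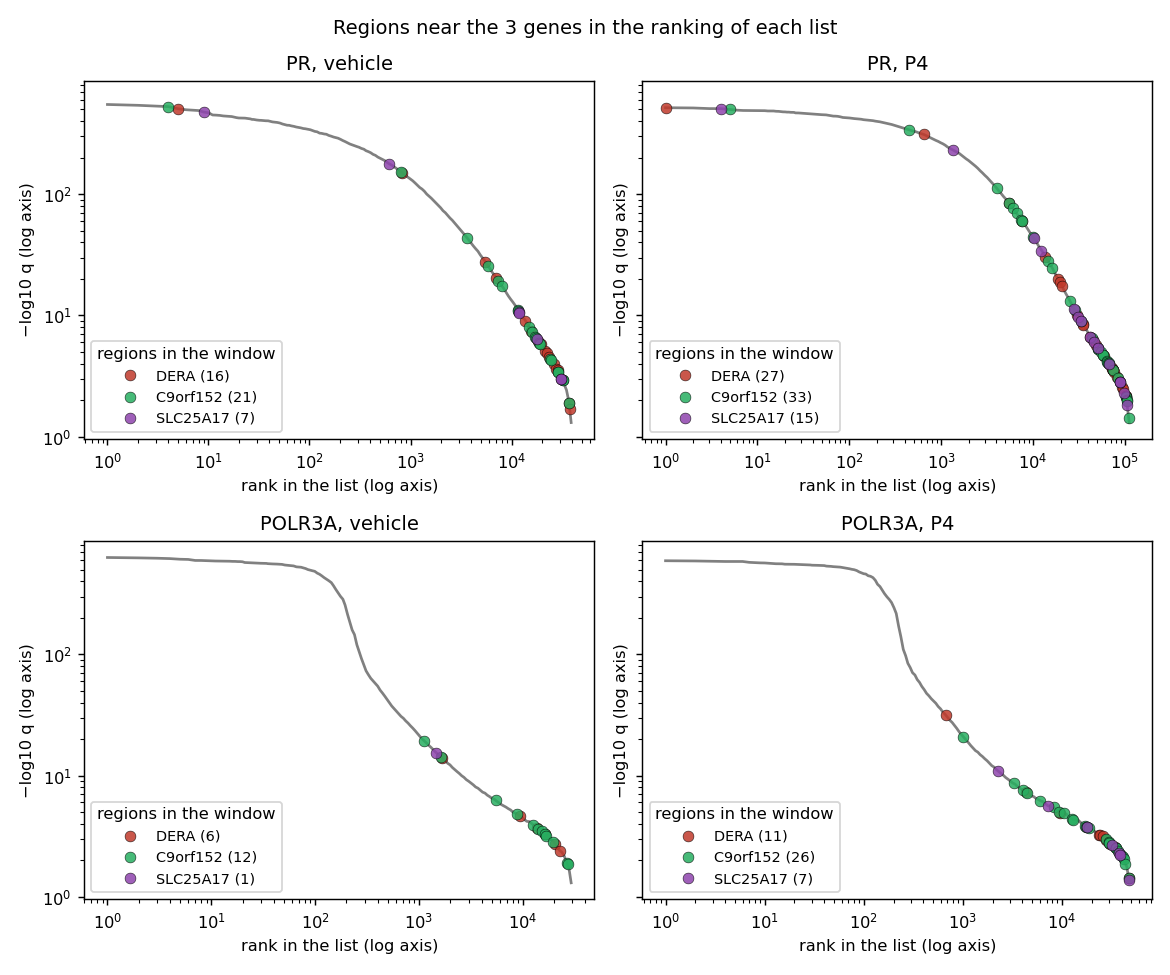
Rank (x, log axis) and −log10 q (y, log axis) of every region of each list, as a grey line, with the regions in the windows of DERA (red), C9orf152 (green) and SLC25A17 (purple) as points. In the PR lists each gene has 1 region within the first 9 ranks and another between rank 443 and rank 1362, while their best POLR3A region has rank 684.

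Beyond the leading region, each window held a further strong PR site. At DERA it lay inside the gene, 57.2 kb from the start, with a fold of 27.4 and rank 829 under vehicle and a fold of 47.8 and rank 649 under P4. At C9orf152 it lay 47.7 kb past the end of the gene, within the span of PALM2AKAP2, which encodes an anchoring protein of protein kinase A, and of the non-coding RNA gene LOC124902244. Its fold was 27.3 and its rank 807 under vehicle, and 46.8 and 443 under P4. At SLC25A17 the further site was the one inside the gene, 13.3 kb from the start, with a fold of 34.0 and rank 617 under vehicle and a fold of 33.0 and rank 1362 under P4. Ranks in lists of unlike length do not measure a change between treatments. The remaining regions were weaker. Over all PR regions of a window, the strong sites included, the median fold lay between 4.17 and 5.65 under vehicle. Under P4 it lay between 3.78 and 4.40, and the medians of the whole PR lists were 3.78 and 3.55. No median was taken for the remaining regions alone.

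**Figure D2:**
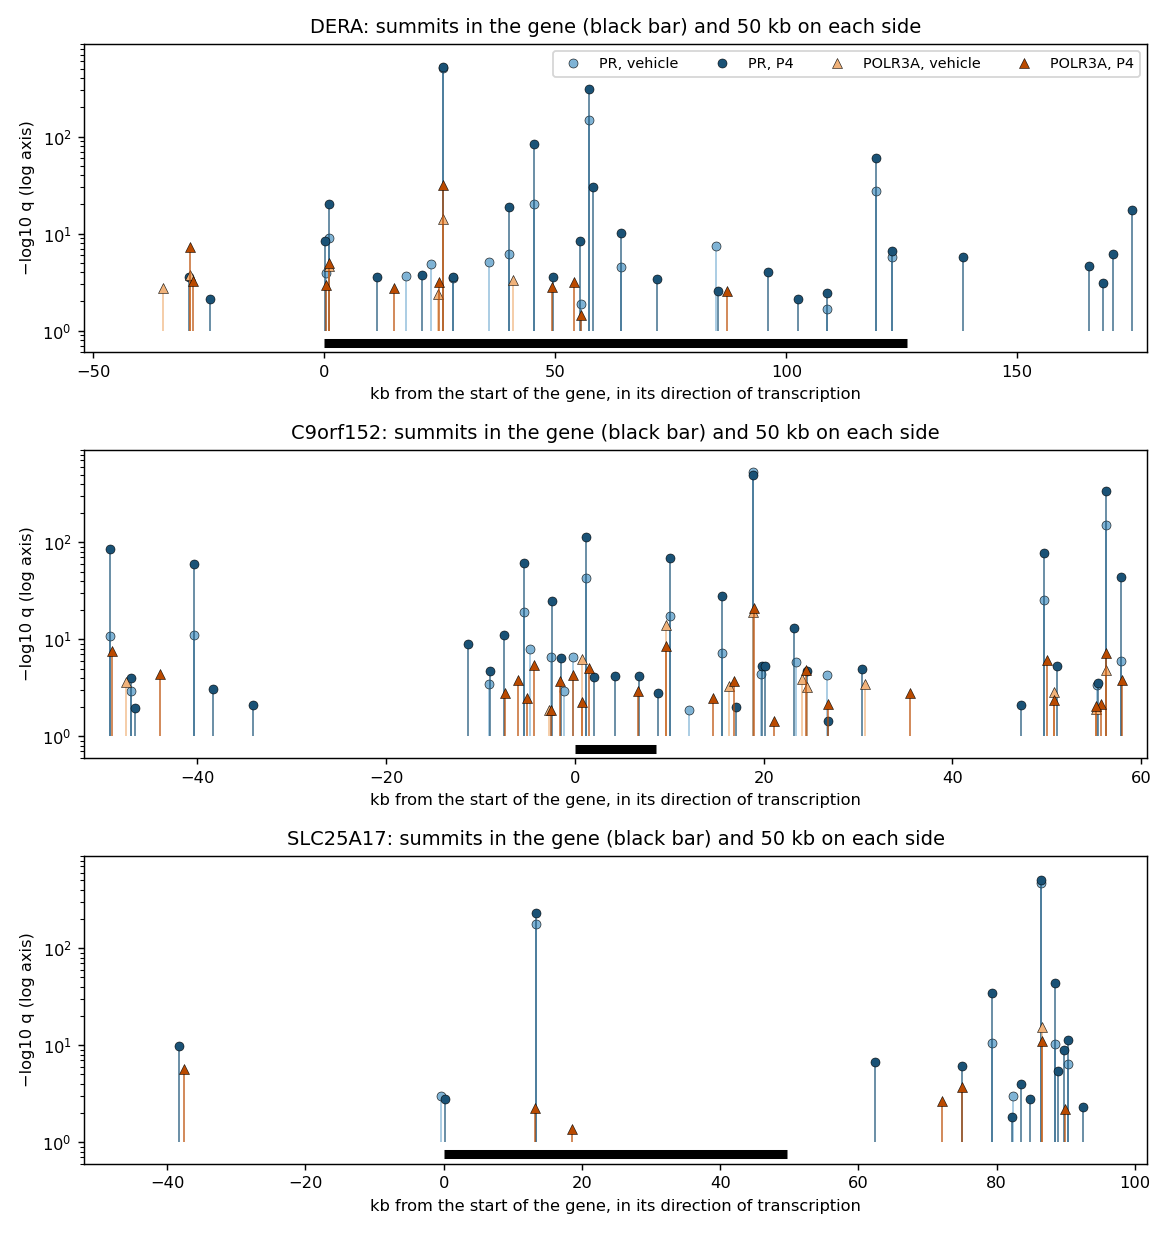
Summits of the regions of the 4 lists along each gene, with kb from the gene's start in its direction of transcription on the x axis and −log10 q on a log y axis; circles are PR, triangles POLR3A, pale symbols vehicle and dark symbols P4, and the black bar is the gene. The leading PR summit lies 25.6 kb into DERA, 10.3 kb past the end of C9orf152 and 36.7 kb past the end of SLC25A17, and a POLR3A triangle stands at each.

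The promoters of the genes are shown because they are where PR regions and gene starts can be compared base by base. The promoter window was the 250 bases before to 50 bases after the start. A PR region reached it at 2 of the 3 genes under vehicle, against 6.36% of 34961 promoters, and at the same count under P4, against 19.1%. POLR3A reached 0 of 3 under vehicle, against 13%, and 1 of 3 under P4, against 12.3%. The percentages are for the 250 bases before the start alone, at coding and non-coding genes, so they cover a shorter stretch. Over the 15812 protein-coding genes with a promoter entry the shares were higher. They were 7.54% and 24.0% for PR under vehicle and P4, and 18.4% and 17.2% for POLR3A. Within those 250 bases DERA had no PR P4 region. The 250 bases before the start follow, 5′ to 3′ on the strand of the gene, from RefSeq (GRCh38.p14), for the 3 genes and for TXN, a neighbour of C9orf152 that encodes the redox protein thioredoxin and whose start carried a PR region. Capitals mark the hexamer TGTTCT, the core of the element that steroid receptors of this class bind.
DERA (chr12:15911082-15911331, plus strand): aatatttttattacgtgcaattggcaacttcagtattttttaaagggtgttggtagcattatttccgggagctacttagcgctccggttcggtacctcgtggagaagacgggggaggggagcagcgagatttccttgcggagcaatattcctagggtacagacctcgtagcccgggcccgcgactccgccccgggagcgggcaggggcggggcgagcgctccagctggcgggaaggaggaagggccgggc
C9orf152 (chr9:110208160-110208409, minus strand): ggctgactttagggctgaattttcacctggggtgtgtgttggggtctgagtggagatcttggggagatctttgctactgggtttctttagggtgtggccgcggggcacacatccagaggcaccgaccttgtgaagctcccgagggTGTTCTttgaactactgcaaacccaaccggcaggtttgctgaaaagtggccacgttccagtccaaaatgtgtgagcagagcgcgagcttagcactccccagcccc
SLC25A17 (chr22:40819347-40819596, minus strand): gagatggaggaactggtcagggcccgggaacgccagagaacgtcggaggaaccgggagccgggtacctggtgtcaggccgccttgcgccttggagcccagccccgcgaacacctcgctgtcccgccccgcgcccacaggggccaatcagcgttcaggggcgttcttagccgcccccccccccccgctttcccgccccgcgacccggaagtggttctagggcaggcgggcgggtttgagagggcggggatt
TXN (chr9:110256508-110256757, minus strand): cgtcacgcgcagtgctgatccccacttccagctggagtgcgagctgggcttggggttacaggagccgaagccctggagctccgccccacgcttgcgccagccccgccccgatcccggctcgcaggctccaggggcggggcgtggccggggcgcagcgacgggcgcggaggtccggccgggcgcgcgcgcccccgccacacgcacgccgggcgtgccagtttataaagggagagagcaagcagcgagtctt

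Among these 4 promoters the hexamer, searched on both strands (TGTTCT or AGAACA), was found in that of C9orf152 alone, beginning 105 bases before the start. Of all 34961 promoters of this length, 12.4% hold it. In GC content the promoters stood at 59.2% for DERA, 56% for C9orf152, 71.2% for SLC25A17 and 73.6% for TXN, against a median of 58.4%.

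The bound part of these promoters differed from gene to gene. At C9orf152 all 250 bases lay in a PR P4 region (chromosome 9, 110206422 to 110209318, fold 18.9, −log10 q 112.7, rank 4005), 213 in a PR vehicle region (fold 4.29, −log10 q 6.61) and all 250 in a POLR3A P4 region (fold 3.50, −log10 q 4.34). The PR P4 region was 2897 bp wide and wider than 99.97% of its list. Its summit stood 1.14 kb inside the gene, where the vehicle list had a separate region of 1173 bp with a fold of 9.85. At DERA the PR regions were weak, with a fold of 3.51 under vehicle, covering 77 of the 250 bases, and of 4.83 under P4, covering none of the 250 bases and beginning just after the start. No region of any list covered the SLC25A17 promoter. The nearest PR summits there were 0.19 kb inside the gene under P4, with a fold of 3.15, and 0.348 kb before the start under vehicle, with a fold of 3.45. At TXN a PR P4 region of fold 17.0 and −log10 q 85.3 covered all 250 bases, the PR vehicle region of fold 5.33 covered 117 and a POLR3A P4 region of fold 4.70 covered 43. Each of these TXN regions had its summit, where the fold is taken, outside the 250 bases, at 110257389, 110257388 and 110257228 in that order.

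POLR3A regions lay under the leading PR site of every gene in both treatments. For comparison, 24.2% of all PR vehicle regions and 20.9% of all PR P4 regions overlapped a POLR3A region of the same treatment, and the shares were 63.2% and 69.7% in the strongest 1% of each PR list. The overlap at the 3 genes is thus frequent among strong PR regions. At DERA the POLR3A fold was 6.98 under vehicle (−log10 q 14.0, rank 1663 of 29161) and 10.5 under P4 (−log10 q 31.4, rank 684 of 47904). At C9orf152 it was 8.12 (−log10 q 19.3, rank 1125) and 6.84 (−log10 q 20.9, rank 1012). At SLC25A17 it was 7.71 (−log10 q 15.5, rank 1454) and 5.76 (−log10 q 10.9, rank 2270). These folds were above the medians of their own lists, 3.50 and 3.28. By −log10 q none of the regions was in the strongest 1% of its POLR3A list. By fold the DERA region under P4 was, at rank 334 and above the 99th percentile of 7.17. The other folds were below the 99th percentiles of their lists, 15.1 under vehicle and 7.17 under P4. In each window and treatment the region under the leading PR site was the strongest POLR3A region, and at SLC25A17 under vehicle the only one. Among the comparison genes taken up below, the same held at FKBP5 and ZBTB16 in both treatments and at GREB1 under P4. At GREB1 under vehicle that region tied for strongest. Each of the first 10 regions by PR rank had a POLR3A partner in both treatments. The partners' folds ran from 5.60 to 9.57 in the vehicle list and from 4.03 to 10.5 in the P4 list. The DERA value was the highest among the partners of the 100 strongest PR P4 regions, 97 of which had a partner.

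PR and POLR3A summits were close at the leading sites. They were 19 bp apart at DERA under vehicle and 11 bp under P4, 6 and 30 bp at C9orf152, and 51 and 57 bp at SLC25A17. In the strongest 1% of PR regions with a POLR3A partner the median was 51 bp under vehicle (246 regions, quartiles 15 and 110 bp) and 56 bp under P4 (777 regions, quartiles 22 and 166 bp). Over all PR regions with a partner it was 82 and 104 bp. The 3 sites thus stood at or below the median distance of their rank class under vehicle, and 1 bp above it at SLC25A17 under P4.

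**Figure D3:**
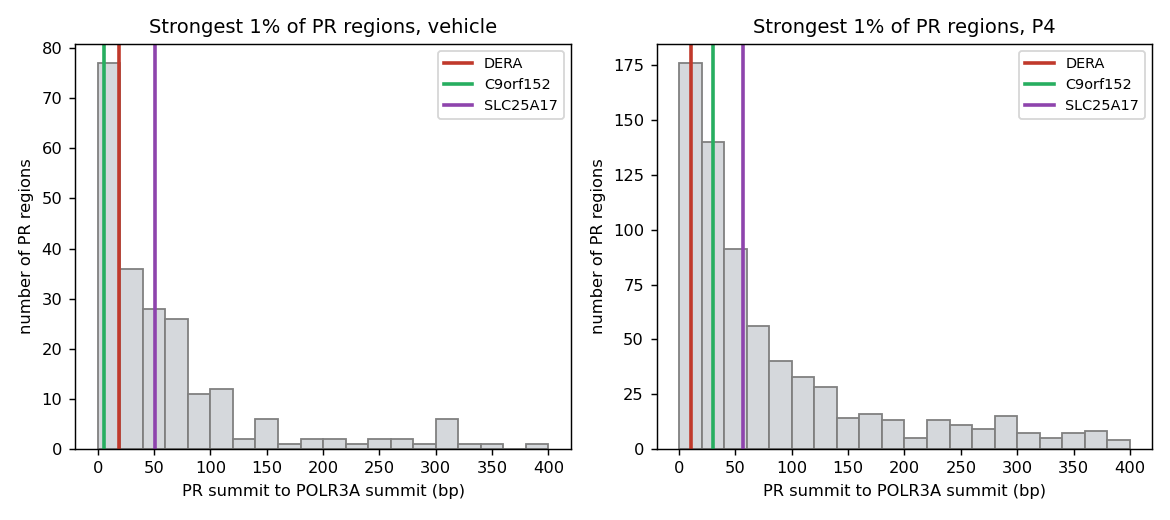
Number of PR regions (y) by distance from the PR summit to the nearest POLR3A summit in an overlapping region (x, bp, bars of 20 bp up to 400 bp), for the strongest 1% of PR regions under vehicle and P4. Coloured lines mark the leading sites of DERA (19 and 11 bp), C9orf152 (6 and 30 bp) and SLC25A17 (51 and 57 bp), all below 60 bp. Pairs of summits 400 bp or more apart are not drawn.

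The further strong PR sites differed in POLR3A. The site 57.2 kb into DERA overlapped no POLR3A region under either treatment, although it was in the strongest 1% of the PR P4 list, in which 69.7% of regions had a partner. The site in PALM2AKAP2 had POLR3A under both treatments, with a fold of 4.05 under vehicle and 4.70 under P4. The site inside SLC25A17 had none under vehicle and a region under P4 with a fold of 3.09 and a −log10 q of 2.28, below the list median of 3.22. POLR3A regions without PR were also present. The second strongest POLR3A region of the C9orf152 window, in both treatments, lay 1.0 kb past the end of the gene (chromosome 9, 110198410 to 110198829 under vehicle and 110198354 to 110198654 under P4). Its fold was 6.26 (rank 1638) and 4.65 (rank 3255), and no PR region of either list overlapped it.

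The density of regions set C9orf152 apart from the other 2 genes. All 3 genes had a region of every list in their window, as did 74.6% of protein-coding genes for PR vehicle, 90.5% for PR P4, 68.7% for POLR3A vehicle and 71.9% for POLR3A P4, so that presence by itself says little. The 108.6 kb around C9orf152 held 21 regions of the PR vehicle list and 33 of the PR P4 list, or 19.3 and 30.4 per 100 kb. These densities were above those of 99.7% and 97.7% of protein-coding genes. POLR3A had 12 and 26 regions there, or 11.0 and 23.9 per 100 kb, above 95.8% and 98.6% of genes. PR regions covered 9.53% of this window under vehicle and 19.0% under P4, against medians of 0.453% and 1.78% over all genes. In the 226.1 kb around DERA there were 16 and 27 PR regions, or 7.08 and 11.9 per 100 kb, above 90.9% and 76.7% of genes, and 6 and 11 POLR3A regions. In the 149.7 kb around SLC25A17 there were 7 and 15 PR regions, or 4.68 and 10.0 per 100 kb, above 81.9% and 70.9% of genes, with 1 and 7 POLR3A regions. The POLR3A vehicle density there, 0.668 per 100 kb, was below the gene median of 0.971. The leading PR sites thus lay in windows of unlike density.

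**Figure D4:**
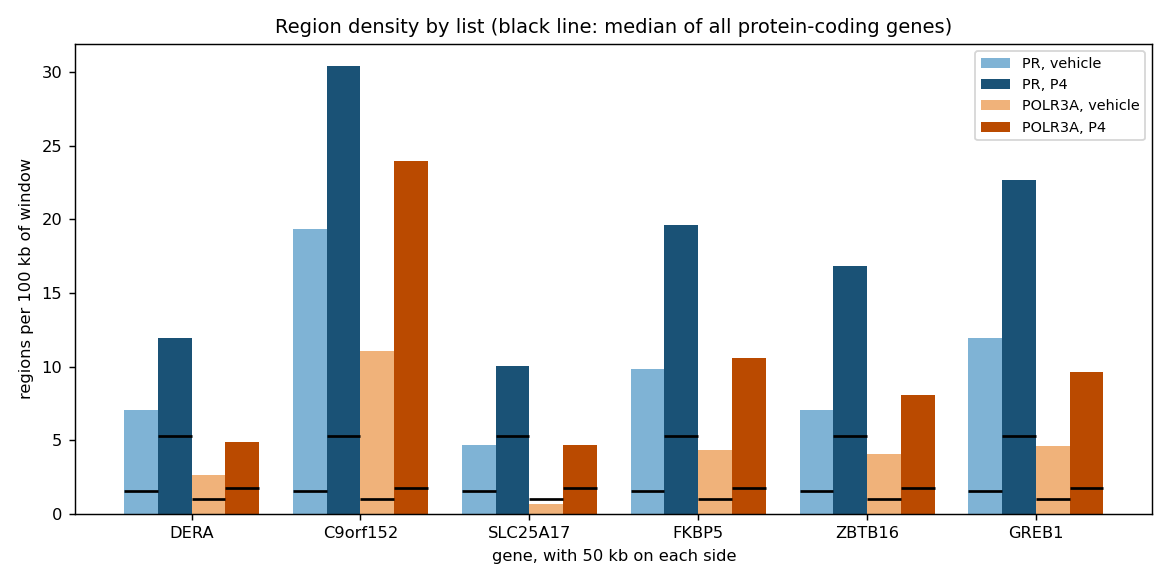
Regions per 100 kb of window (y, bars from 0) in each list for DERA, C9orf152, SLC25A17 and the progesterone targets FKBP5, ZBTB16 and GREB1, with a black line at the median of all protein-coding genes. C9orf152 has the highest bar of the 6 genes in every list, up to 30.4 for PR under P4, and SLC25A17 the lowest.

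The regions were spread differently along the genes. At DERA all 16 PR vehicle summits lay inside the gene. Under P4, 20 of 27 were inside, 2 before the start and 5 past the end, the strongest of the outer ones at the far edge of the window with a fold of 6.32 and a −log10 q of 17.4. At C9orf152, a short gene of 8.6 kb, 1 of 21 vehicle summits and 4 of 33 P4 summits were inside, and the others were split between the sides, 9 and 12 before the start and 11 and 17 past the end. At SLC25A17, 5 of 7 vehicle summits and 12 of 15 P4 summits lay past the end, most of them around the leading site, and the body of the gene had 1 and 2. Strong PR regions elsewhere also lie in both kinds of place. In all, 58.4% of the strongest 1% of the PR P4 list had the summit inside a protein-coding gene, as at DERA, and 14.7% were more than 36 kb from any, as at SLC25A17.

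Joined across lists, the regions of the 3 windows made 94 separate sites, of which 78 had PR. PR was present under both treatments at 34 sites, under P4 alone at 38 and under vehicle alone at 6. By gene, DERA had 12, 15 and 4 such sites, C9orf152 16, 14 and 1, and SLC25A17 6, 9 and 1. Sites with all 4 lists numbered 7, of which 4 were at C9orf152, 2 at DERA and 1 at SLC25A17. No share of joined sites over the whole lists is given, so the site counts do not show whether these windows are unusual. The second all-list site of DERA lay 0.9 kb into the gene, with PR folds of 5.23 under vehicle and 7.33 under P4 and POLR3A folds of 4.20 and 4.12. POLR3A was present under both treatments at 12 sites, under P4 alone at 25 and under vehicle alone at 5. As regions, 14 of the 44 POLR3A P4 regions, 31.8%, overlapped a POLR3A vehicle region, against 25.8% of the whole list, and 13 of 19, or 68.4%, did so in the other direction, against 42%. The POLR3A P4 list is 1.64 times as long as the vehicle list.

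Counted as regions, 36 of the 75 PR P4 regions of the windows, 48%, overlapped a PR vehicle region, against 25.8% of the whole list. The shares were 44.4% at DERA, 54.5% at C9orf152 and 40% at SLC25A17. In the other direction 38 of 44 vehicle regions, 86.4%, overlapped a P4 region, against 75.7%. The windows were chosen for leading PR regions, and every region of the strongest 1% of either PR list overlapped the other list. These shares are therefore a description. The PR P4 list held 1.70 times as many regions as the vehicle list in the windows and 2.86 times as many over all chromosomes analysed. With both lists held to 38933 regions the ratio in the windows was 0.727, so its direction depended on the length of the lists. Of the 75 PR P4 regions, 25 or 33.3% overlapped a POLR3A P4 region, against 20.9%. Under vehicle the share was lower than in the whole list, with 8 of 44 PR regions or 18.2% overlapping POLR3A, against 24.2%. By gene the vehicle shares were 12.5% at DERA, 23.8% at C9orf152 and 14.3% at SLC25A17. Most of the P4 overlaps were at C9orf152, where 16 of 33 did, while DERA had 5 of 27 and SLC25A17 4 of 15. At C9orf152, 21 of 26 POLR3A P4 regions overlapped PR, or 80.8% against 50.5% of the whole list. PR P4 regions covered 19.0% of that window, against a median of 1.78% over all genes. Of the 26 POLR3A regions, 19 had a −log10 q below 5. What the coverage adds to the overlap was not tested.

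The other genes in the windows differed as well. In the DERA window, STRAP, which encodes a WD-repeat adaptor protein, starts next to the non-coding RNA gene LOC102724146 on the opposite strand. POLR3A reached the STRAP promoter under vehicle (fold 3.59) and P4 (fold 3.94), and PR under P4 (fold 2.93). The pseudogene EGLN3P1 had no region of any list. In the C9orf152 window, LOC105376217 had 1 PR P4 and 1 POLR3A vehicle region in its span. PALM2AKAP2, most of which lies outside the window, had 17 PR regions under vehicle and 53 under P4 over its whole span. TXN had 2 PR regions under vehicle and 5 under P4 within its 12.7 kb. In the SLC25A17 window, no region touched the span of ST13, which encodes a cochaperone that works with heat shock proteins. None touched DNAJB7, a J-domain protein gene, nor MIR4766, nor the pseudogenes RFKP4 and JTBP1. A POLR3A P4 region of fold 4.48 reached the promoter of XPNPEP3, a mitochondrial aminopeptidase gene, and a PR P4 region of fold 5.24 lay just inside that gene. The POLR3A region, 40856770 to 40857052, lay between XPNPEP3 and ST13, whose span ends at 40856639. The ST13 promoter was not analysed, so that region may not belong to XPNPEP3 alone.

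FKBP5, ZBTB16 and GREB1, known progesterone targets, served for comparison. The best PR region ranked 8 under vehicle and 6 under P4 at FKBP5, 3 and 3 at ZBTB16, and 44 and 224 at GREB1. Their windows of 255.0, 297.1 and 259.9 kb held 50, 50 and 59 PR P4 regions. Per 100 kb these were 19.6, 16.8 and 22.7, between the 30.4 of C9orf152 and the 11.9 of DERA and 10.0 of SLC25A17. The differences were not tested, since each gene has 1 value in each list.

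Genes were also ranked by likeness to each of the 3, as the sum over the 4 lists of the differences in log2 of 1 plus the number of regions and in log10 of the best rank. For C9orf152 the nearest of 11363 genes were ZBTB16 (distance 1.24), FKBP5 (1.74) and ARMC12 (2.00), against a median distance of 14.8. For DERA they were RPS10 (2.63), CLPSL2 (2.78) and RPS10-NUDT3 (3.21), against 12.9, and for SLC25A17 they were RAB17 (3.06), PRLH (3.47) and STPG1 (3.58), against 11.1. Several of these share regions with one another: RPS10 with RPS10-NUDT3, which overlaps it, ARMC12 and CLPSL2 with FKBP5, whose leading region is in their windows, and PRLH with RAB17. The measure rests on 4 lists and says only that counts and best ranks are alike. PR counts and PR ranks enter it, and the 3 genes were chosen on PR strength, so the order of likeness is a description. Only genes with a region in all 4 lists were compared, and counts were not divided by window length.

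Other genes of the pathways of DERA and SLC25A17 were looked at by the same windows. Of 21 genes of deoxyribose and ribose phosphate metabolism, 14 had a PR region under vehicle and 21 under P4, with medians of 2 and 5 regions, against medians of 2 and 8 over all protein-coding genes. POLR3A was near 11 and 13 of them. Those with the most PR P4 regions were TK1, a thymidine kinase (42), NT5C, a nucleotidase (32), SAMHD1, which hydrolyses deoxynucleotides (32), and ADA, adenosine deaminase (21). TK1 had the best PR ranks among these 4, 131 under vehicle and 127 under P4. Of 32 peroxisomal genes, 23 had PR under vehicle and 29 under P4, with medians of 2 and 6, and POLR3A was near 22 and 25. PXMP4, a peroxisomal membrane protein gene, had 46 PR P4 regions and best ranks of 35 and 71. PEX14, part of the peroxisomal import machinery, had 42, and PEX6, an ATPase of the same machinery, had 33. Of 12 further SLC25 carriers, 11 had PR under vehicle and 12 under P4, with medians of 2.5 and 8.5, and POLR3A was near 8 and 9. SLC25A25, a carrier of ATP and magnesium, had 55 PR P4 regions with a best rank of 349. A region of the strongest 1% of the PR P4 list lay near 1 of the 21, 6 of the 32 and 1 of the 12 genes, against 9.1% of all protein-coding genes, and one of the strongest 1% of the vehicle list near 1, 5 and 1, against 3.25%. The share of genes with a region in each list can be read against 74.6%, 90.5%, 68.7% and 71.9% of all protein-coding genes, and nothing particular to these pathways is drawn from counts that were not tested.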

How the data were processed

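Peak lists of ChIP-seq in T47D cells were used, 1 for each antibody and treatment. Per the submitters' processing notes, the tools were cutadapt, Bowtie2 and MACS2 and the build was hg38. Their order and versions, the control and the pooling of replicates are not given in the sources used here. Each region's −log10 q and its fold enrichment (a ratio) are values the authors deposited, and they served only for description, ranking and filtering inside 1 list. The lists hold no read counts, so depth is unknown, and depth affects the length of a list and its q-values. Summit positions were taken from the deposited offset column.

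Regions on chromosomes 1 to 22 and X were kept. Genes came from RefSeq (GRCh38.p14, the same build). For each chromosome they were kept up to the point where start positions first fell back, which left 58419 of 59098. Strand and promoter sequence came from the RefSeq promoter table, which had 15812 of the 19821 protein-coding genes, and promoters of ZBTB16, GREB1 and ST13 were not analysed here. Overlap meant at least 1 bp, and was checked against bedtools 2.31.1 (8 of 8 counts equal) and tested on simulated data. In 2700 of 2700 overlapping promoter pairs on opposite strands the sequences matched. The analysis used Python 3.11.15 and pandas 2.3.3.

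Named were the 3 genes, all genes in their windows, up to 4 genes of each pathway list by number of PR P4 regions, 3 comparison genes and the 3 most alike genes at least 1 Mb away. Some genes that this rule would name are not reported here. The genes, lists and rules were chosen with earlier results of these data known. As alternatives, regions under a −log10 q of 5 or 10 were dropped, and use was made of windows of 10 or 100 kb, lists of equal length, a reciprocal overlap of 50% and rank by fold.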

Additional observations from a re-analysis of the deposited data

How the results depend on the processing

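No paired analysis was possible because the replicates of a group share 1 list, and for the same reason no replicate could be left out. The 3 windows held 44 PR vehicle, 75 PR P4, 19 POLR3A vehicle and 44 POLR3A P4 regions. At a −log10 q of at least 5 these were 28, 42, 5 and 11, and at 10 or more they were 16, 27, 4 and 3. With 10 kb on each side, which leaves out the leading sites of C9orf152 and SLC25A17, they were 28, 35, 8 and 24. With lists of equal length the P4 counts were 32 for PR and 25 for POLR3A, and the PR ratio of P4 to vehicle reversed from 1.70 to 0.727 (0.688 at DERA, 0.667 at C9orf152 and 1 at SLC25A17). The 36 PR P4 regions with PR vehicle became 16 at a −log10 q of 10 or more and 20 with 10 kb. The 25 with POLR3A became 8 at 5 or more, 3 at 10 or more, 12 with 10 kb, 12 with a reciprocal overlap of 50% and 11 with lists of equal length, a setting chosen for this count after the data had been seen. Windows of 100 kb changed no count by more than 1.5 times. By fold, the ranks of the leading regions were 8 in place of 5 for DERA and 2 in place of 9 for SLC25A17 under vehicle, and 72 in place of 5 for C9orf152 and 6 in place of 4 for SLC25A17 under P4. Stricter thresholds keep fewer regions by construction. What depth adds to the counts was not tested.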
